A study of Mus musculus with 6 samples.

Results

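Endoderm differentiated from R1 mouse embryonic stem cells was passaged 6 times in co-culture with mesenchyme 2, a mouse mesenchyme (P6), and compared with unpassaged endoderm on gelatin (P0). The comparison took the 2 arrays titled for passage 6 on mesenchyme 2 and the 2 titled as unpassaged, which is 4 of the 6 arrays of the series; the other 2 hold cells after 6 passages on mesenchyme 1. All cells carried a Sox17-GFP construct, received Activin A and Wnt3A over 6 days and were sorted on the reporter after differentiation. P0 RNA was collected from those sorted cells, and the extraction protocol, given for all samples, names sorting of reporter-positive cells before RNA was taken. The labels do not say from which tissue either mesenchyme was taken. The 2 arrays of a group are technical duplicates in the words of the series' design, so each group is 1 culture, and errors and p-values below cover the spread between arrays only.

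Activin A acts through the Nodal receptors and, with Wnt signalling, drives stem cells through a primitive streak stage to definitive endoderm, the layer that forms the lining of the gut and its glands. Extraembryonic endoderm is a separate, earlier lineage that also expresses Sox17: its parietal cells lay down a thick basement membrane, and its visceral cells take up maternal proteins, digest them in lysosomes and secrete plasma proteins. Serial passage on mesenchyme is a way of expanding endoderm, and the comparison asks how the expanded cells differ from those first obtained.

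Values are the deposited normalized intensities on a linear scale, for the brightest probe of each gene, and a level is the geometric mean of 2 arrays. Differences are log2 values, P6 minus P0, with the standard error of a limma fit across all features. Of 8396 features tested, 863 were called higher on mesenchyme 2 (10.3%) and 710 lower (8.46%), together 18.7%, at an adjusted p under 0.05 and a change of at least 2-fold. Of all features, 51.3% lay above 0, which is the share to set beside the counts above 0 given below. The median feature changed by 0.02 on the log2 scale and 271 features changed by at least 4-fold, 176 of them higher and 95 lower. Without the fold limit 5413 features passed, so the 2-fold limit mostly sets the calls. The 2 P6 arrays and the 2 P0 arrays did not overlap for 83.4% of all features and for all 1573 called features. Separation of the arrays is thus not in itself particular to any gene below. No detection value could be assigned to these arrays, and 337 of the rises had a P0 level under 50 and 339 of the falls a P6 level under 50; such folds may be compressed or set by background. Within groups the arrays correlated at 0.9936 (P6) and 0.9939 (P0) across probes, which are not independent, and across groups at 0.9057 to 0.9059.

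**Figure D1:**
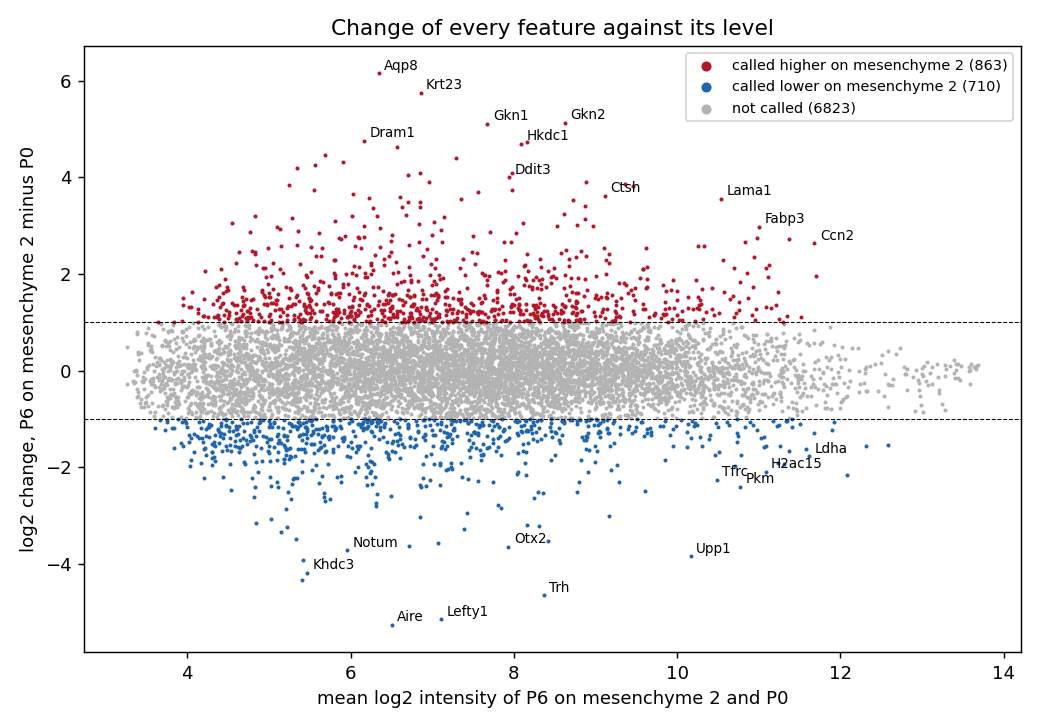
Log2 change of each of the 8396 features, P6 on mesenchyme 2 minus P0 (y axis), against the mean log2 intensity of the 2 groups (x axis); red points were called higher (863), blue points lower (710), grey points were not called and dashed lines mark 2-fold. The rises reach further than the falls: Aqp8 stands highest at 6.15 and Aire lowest at -5.26.

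The label endoderm was checked against marker genes. Sox17, the gene of the sort, measured 722 and 679.9 on mesenchyme 2, against 103 and 90.6 at P0. The P0 arrays, though from cells sorted on its reporter, had the lower level. Foxa3, a forkhead factor of gut endoderm, measured 396 and 423 on mesenchyme 2, against 99.9 and 111 at P0, and both genes rose. Foxa1 and Hhex, the other 2 of the 4 measured markers of definitive endoderm, were not called: their levels were 52.2 on mesenchyme 2 and 73.6 at P0 for Foxa1, and 112 on mesenchyme 2 and 104 at P0 for Hhex; 6 of the 10 markers are not in the analysed table. A wider list of 15 measured definitive endoderm genes had 7 rises and 4 falls (73.3% called, median 0.84). Its changes ran from -4.647 for Trh to 3.404 for Gata6, which is also a regulator of extraembryonic endoderm. The gene lists below share members, so their counts are not independent. All 10 measured parietal endoderm markers and all 6 measured visceral endoderm markers rose. Their summed intensities were 30730 and 31840 on mesenchyme 2 against 5261 and 5375 at P0 for parietal markers, and 6620 and 6218 on mesenchyme 2 against 1041 and 1090 at P0 for visceral markers. The measured markers thus do not set the P6 cells apart as definitive endoderm, and the groups are called here by their culture. Of the 7 stem cell markers, Pou5f1, Zfp42, Utf1 and Tdgf1 fell while Nanog, Sox2 and Esrrb were not called; Nanog stood at 1632 on mesenchyme 2 and 2310 at P0. In bulk RNA, fewer cells of a type and less RNA per cell cannot be told apart.

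Fibroblast genes were measured as markers of the co-cultured mesenchyme. Thy1, Twist1 and Twist2, the 3 measured of 12 fibroblast markers, summed to 86.9 and 85.8 on mesenchyme 2 and to 85.4 and 96.4 at P0, and none was called. The other 9 markers are not in the analysed table, and the 3 measured ones lie at low levels. They are thus a weak measure of carried-over mesenchyme. A wider list of 13 measured fibroblast and mesenchyme genes had 0 rises and 0 falls, a median of -0.17 and changes between -0.65 and 0.54. Of these 13 genes, 5 had levels under 50 in both groups. None of the 6 blood and macrophage markers is in the analysed table. The neural marker Nes stood at 51.9 on mesenchyme 2 and 71.8 at P0. Among endothelial markers, Tek, the angiopoietin receptor, measured 277 and 256 on mesenchyme 2, against 89.4 and 104 at P0, and Pecam1, the endothelial adhesion molecule, was not called at 152 on mesenchyme 2 and 208 at P0.

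The largest rises included genes of stomach and intestinal lining, of which 9 of 13 measured members rose and 1 fell (median 3.50). Gkn2, a gastrokine secreted by gastric surface cells, measured 2401 and 2280 on mesenchyme 2, against 67.0 and 66.6 at P0, a difference of 5.13 ± 0.0974 (35.0-fold, limma, adjusted p = 1.19e-06). Its neighbour on chromosome 6, Gkn1, a second gastrokine, measured 1144 and 1265 on mesenchyme 2, against 29.8 and 40.5 at P0 (5.11 ± 0.154, 34.6-fold, adjusted p = 2.20e-06). For both genes the P6 arrays lay far above the P0 arrays and the duplicates lay close together. Antxr1, the measured gene on the other side of Gkn1, was not called at 27.6 on mesenchyme 2 and 26.2 at P0. Aqp8, a water channel of gut and liver epithelium, measured 681 and 693 on mesenchyme 2, against 9.86 and 9.46 at P0. Its P0 level is among the lowest on the arrays, and its fold moved with a constant added: it was 71.1 as deposited and 12.35 with 50 added to every intensity, where that of Gkn2 was 20.45. Krt23, an epithelial keratin, measured 834 and 873 on mesenchyme 2, against 14.1 and 17.7 at P0. Slc34a2, a sodium-phosphate cotransporter of intestine and lung, measured 198 and 217 on mesenchyme 2, against 10.8 and 10.98 at P0. Tspan8, a tetraspanin of gut epithelium, measured 352 and 432 on mesenchyme 2, against 30.3 and 39.2 at P0. Lgals2, a galectin of the gut, rose by 3.39 ± 0.122 and Muc13, a membrane mucin, by 2.74 ± 0.131 on its brightest probe. Another Muc13 probe, with a mean intensity of 12.0 that is near the low end, changed by 0.77 and was not called. The list was not uniform: Lgals4, another gut galectin, was not called at 95.8 on mesenchyme 2 and 54.5 at P0, nor was the intestinal peptidase Mep1b at 48.5 on mesenchyme 2 and 26.4 at P0, and Tm4sf5 fell by 1.18 at levels near the low end, 9.35 on mesenchyme 2 and 21.1 at P0. Pga5, a pepsinogen of the stomach, stood outside that list among the 30 largest rises, at 2539 and 2736 on mesenchyme 2, against 191 and 184 at P0.

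Since the 2 gastrokine genes rose together, the 250 bases before their RefSeq starts (GRCm38.p6) are shown, with capitals marking AGATAA on either strand, one form of the site read by GATA factors. Gkn1 is at chr6:87350916-87351165 (minus strand) and Gkn2 at chr6:87373115-87373364 (plus strand).
Gkn1: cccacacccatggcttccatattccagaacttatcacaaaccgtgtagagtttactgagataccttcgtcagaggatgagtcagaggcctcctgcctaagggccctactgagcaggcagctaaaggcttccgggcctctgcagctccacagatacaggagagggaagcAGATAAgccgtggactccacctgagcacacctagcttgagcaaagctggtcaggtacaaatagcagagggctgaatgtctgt
Gkn2: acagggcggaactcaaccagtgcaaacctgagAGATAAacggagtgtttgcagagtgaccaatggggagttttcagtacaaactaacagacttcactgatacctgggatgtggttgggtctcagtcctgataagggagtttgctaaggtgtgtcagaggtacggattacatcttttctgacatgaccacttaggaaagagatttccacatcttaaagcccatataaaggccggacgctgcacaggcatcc
Each window holds 1 match. The letters occur in 6.6% of the 6378 measured genes that have a window and in 11.4% of all 27025 genes of the RefSeq table. Their share was 7.7% of genes called higher and 6.9% of genes called lower, so they were about as frequent in both directions. Among the 9 gut genes that rose, 3 hold them (Gkn1, Gkn2 and Lgals2). Gata6, which encodes a GATA factor of endoderm, measured 1514 and 1541 on mesenchyme 2, against 129.6 and 161 at P0 (10.6-fold), and Gata4, a second one, measured 49.6 and 36.5 on mesenchyme 2, against 8.26 and 15.8 at P0, at levels where the fold is uncertain. A match of letters is a description and not a bound site.

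**Figure D2:**
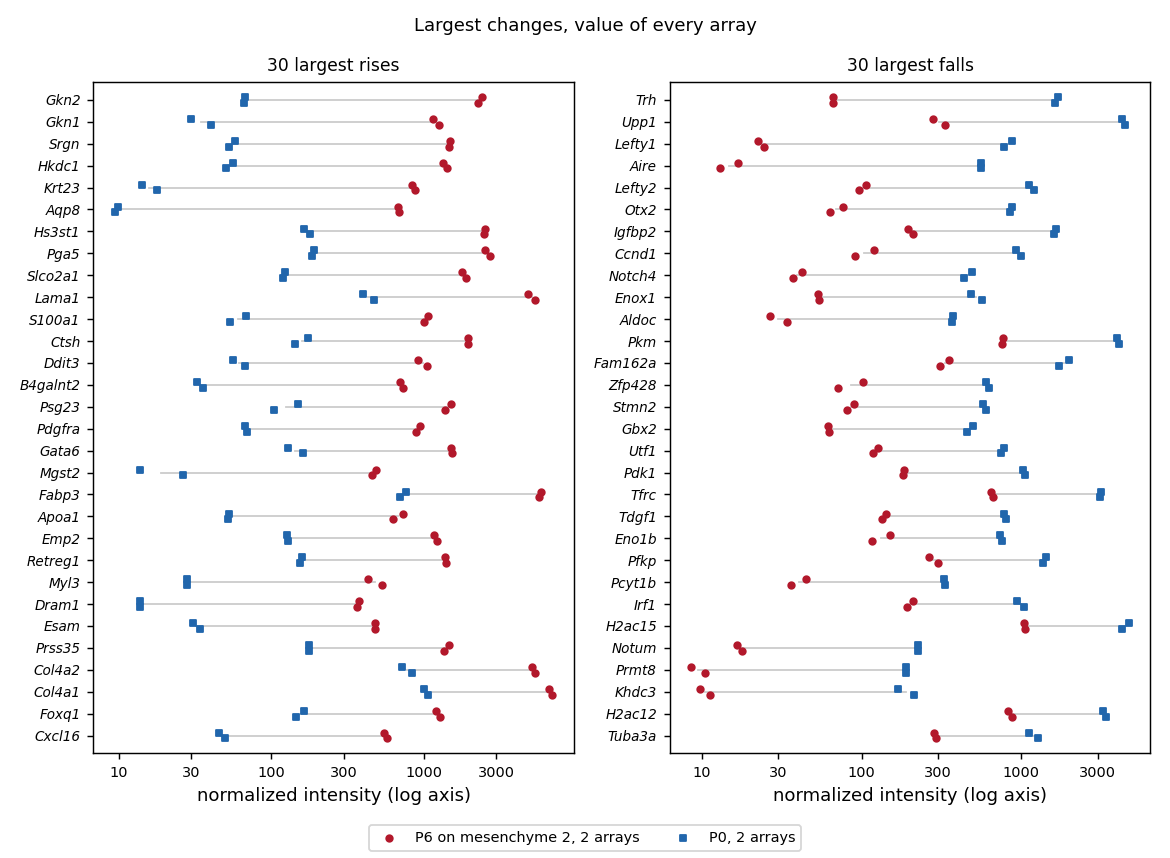
Normalized intensity (x axis, log scale) of every array for the 30 largest rises (left panel) and the 30 largest falls (right panel), ranked by the change after adding 50 to each intensity; red circles are the 2 arrays of P6 on mesenchyme 2, blue squares the 2 P0 arrays, and grey lines join the means. The groups are separate in all 60 genes, as they are in all 1573 called features, since the genes were chosen by this same change. The duplicates lie close to each other compared with the gap.

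The 30 largest rises covered folds of 6.58 to 71.1, and most of them lay outside the gut list. Hkdc1, a hexokinase-like enzyme, measured 1343 and 1425 on mesenchyme 2, against 56.5 and 50.4 at P0. Srgn, the granule proteoglycan serglycin, measured 1485 and 1459 on mesenchyme 2, against 58.2 and 52.5 at P0. Slco2a1, the prostaglandin transporter, measured 1775 and 1893 on mesenchyme 2, against 123 and 120.4 at P0. Fabp3, a fatty acid carrier best known from heart muscle, measured 5888 and 5677 on mesenchyme 2, against 765 and 701 at P0. In all 4 the P6 arrays lay well above the P0 arrays, and for Fabp3 the P0 arrays were not at the low end. Myl3, a myosin light chain of heart, measured 429 and 531 on mesenchyme 2, against 27.8 and 28.3 at P0, and S100a1, a calcium-binding protein of muscle, measured 1062 and 1010 on mesenchyme 2, against 68.8 and 54.1 at P0. With Tnnc1, a troponin of slow muscle (1.23 ± 0.108), Meis1, a homeobox factor (1.39 ± 0.0944), Gata4 and Myl7, Myl3 was one of 5 genes that rose among 9 measured cardiac and early mesoderm genes, where 0 fell. With 50 added to every intensity 2 of the 9 were called, and Gata4, Myl7 and Tnnc1 were not. Actc1, cardiac actin, stood lower without being called at 28.2 on mesenchyme 2 and 55.5 at P0. Acta1, skeletal actin, measured 851 and 979 on mesenchyme 2, against 178 and 188 at P0. For Actb, cytoplasmic actin, 2 probes disagreed: the brighter measured 1444 and 1411 on mesenchyme 2, against 4215 and 4220 at P0, while another changed by 0.35.

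Basement membrane genes rose as a group, with 13 of 25 measured members higher, 1 lower and 23 above 0 (median 1.14). Lama1, the laminin chain typical of embryonic basement membranes, measured 4872 and 5370 on mesenchyme 2, against 401 and 469 at P0 (3.56 ± 0.131, 11.8-fold). Its partner chains Lamb1 and Lamc1 rose by 2.99 ± 0.0937 and 2.13 ± 0.116, so all 3 chains of laminin-111 were higher. Col4a1 and Col4a2, which encode the type IV collagen chains and are neighbouring genes, measured 6636 and 6979 on mesenchyme 2, against 999 and 1070 at P0 for Col4a1, and 5145 and 5360 on mesenchyme 2, against 722 and 842 at P0 for Col4a2. The enzymes and chaperone that mature collagen were also higher: the prolyl hydroxylases P3h2 (2.54 ± 0.174), P4ha1 (1.603 ± 0.0938) and P4ha2 (1.52 ± 0.0877) and the collagen chaperone Serpinh1, at 944 and 869.7 on mesenchyme 2, against 243 and 242 at P0. Sparc, a matrix protein that binds collagen, measured 6734 and 6484 on mesenchyme 2, against 1666 and 1709 at P0. Nid1 and Nid2, the nidogens that link laminin to collagen, were not called at 0.89 and 0.62, nor was the perlecan gene Hspg2 at 0.24. Col18a1, a collagen of vascular and epithelial basement membranes, went the other way, at 1297 and 1335 on mesenchyme 2, against 2698 and 2808 at P0.

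Genes of the parietal endoderm surface and secretion rose in 12 of 14 measured cases and fell in 0 (median 2.69). Hs3st1, a heparan sulfate sulfotransferase, measured 2528 and 2481 on mesenchyme 2, against 165 and 180.1 at P0. Pth1r, the receptor for parathyroid hormone-related protein, measured 243 and 220.2 on mesenchyme 2, against 19.07 and 17.9 at P0. Thbd, the clotting regulator thrombomodulin, measured 94.4 and 105 on mesenchyme 2, against 16.1 and 16.9 at P0. In each the P6 arrays lay above the P0 arrays by more than the duplicates differed. Pdgfra, the PDGF receptor that marks the primitive endoderm, measured 950.1 and 891 on mesenchyme 2, against 67.7 and 69.4 at P0 (13.4-fold). Fst, the extracellular inhibitor of activin, measured 269 and 229.5 on mesenchyme 2, against 25.3 and 23.1 at P0. Tfpi, a clotting inhibitor, measured 679 and 638 on mesenchyme 2, against 185 and 186 at P0. Grb10, a signalling adaptor, and Aplp2, a relative of the amyloid precursor, were the 2 members not called, at -0.02 and 0.19.

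Of 14 measured regulators of extraembryonic endoderm, 12 rose and 1 fell (median 1.89). Besides Gata6, Gata4 and Sox17 these were Sox7, a close relative of Sox17, at 244 and 215 on mesenchyme 2, against 32.3 and 27.1 at P0; Foxq1, a forkhead factor, at 1206 and 1284 on mesenchyme 2, against 164 and 147 at P0; and Hnf4a, the nuclear receptor of visceral endoderm and liver, at 221 and 192 on mesenchyme 2, against 55.2 and 56.3 at P0. Snai1, a repressor linked to the epithelial-mesenchymal transition, measured 116 and 106 on mesenchyme 2, against 20.7 and 17.2 at P0. Nr2f1 was the gene that fell, at 19.6 on mesenchyme 2 and 52.0 at P0, and Sall4, also a stem cell factor, was not called (-0.55).

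Plasma proteins of visceral endoderm and liver rose in 11 of 14 measured cases, against 7 when 50 was added to every intensity, since several lie at low levels. Afp, alpha-fetoprotein, measured 415 and 432 on mesenchyme 2, against 21.7 and 30.5 at P0. Apoa1, the main protein of high-density lipoprotein, measured 731 and 626 on mesenchyme 2, against 52.8 and 52.1 at P0. Apoe, another apolipoprotein, measured 1455 and 1459 on mesenchyme 2, against 401 and 365 at P0. Ttr, the thyroid hormone carrier, measured 3157 and 3119 on mesenchyme 2, against 502 and 551 at P0. Rbp4, its partner that carries retinol, measured 1728 and 1472 on mesenchyme 2, against 375 and 364 at P0. The P0 arrays were thus not at the low end for Ttr, Rbp4 and Apoe, and these 3 kept rises above 1.80 when 50 was added. Apoc1, a further apolipoprotein, was not called (-0.03).

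Among 15 measured uptake receptors and coat proteins, 5 rose and 1 fell. Amn, the amnionless subunit of the cubilin receptor complex, measured 368 and 377 on mesenchyme 2, against 35.6 and 35.9 at P0. Dab2, the adaptor that links such receptors to clathrin, measured 3608 and 3329 on mesenchyme 2, against 787 and 796 at P0; and Lrpap1, the chaperone of LDL-receptor family proteins, measured 4463 and 4407 on mesenchyme 2, against 892 and 844 at P0. Vldlr, a lipoprotein receptor, rose by 1.36 ± 0.0833. The fall was that of Tfrc, the transferrin receptor through which cells take in iron, at 647 and 663 on mesenchyme 2, against 3152 and 3128 at P0 (-2.26 ± 0.0822, 4.80-fold, adjusted p = 3.37e-06). The 4 arrays of Tfrc did not overlap and stood far from the low end in both groups. The clathrin light chain Clta and the adaptor subunits Ap2m1, Ap2s1 and Ap2b1, which serve all such receptors, were not called, at 0.36, 0.40, 0.24 and -0.24.

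Lysosome genes rose widely: 28 of 49 measured members were called higher, 0 lower, and 47 lay above 0, with a median of 1.13. When 50 was added to every intensity 22 were still called. By role, 8 of 10 proteases rose (median 2.00), 8 of 15 glycosidases, sulfatases and lipases (1.02), 9 of 14 membrane and cofactor proteins (1.35) and 3 of 10 proton pump subunits (0.81). Ctsh, a cathepsin that acts as an aminopeptidase, measured 1956 and 1943 on mesenchyme 2, against 175 and 143 at P0 (3.62 ± 0.113, 12.3-fold). Ctsl, the cathepsin abundant in parietal endoderm, measured 444 and 415 on mesenchyme 2, against 50.8 and 43.5 at P0. Ctsz, a carboxypeptidase, measured 579 and 601 on mesenchyme 2, against 144 and 139 at P0. Ctsb, the most widely used cysteine cathepsin, measured 3857 and 3837 on mesenchyme 2, against 1660 and 1860 at P0. The exceptions among the proteases were Ctsd, at 40.0 on mesenchyme 2 and 28.9 at P0, and Ctsf, at 60.2 on mesenchyme 2 and 39.8 at P0, both of low intensity on this array.

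Neu1, the sialidase of lysosomes, measured 1885 and 1927 on mesenchyme 2, against 337 and 316 at P0. Hexa, which removes hexosamines from gangliosides, measured 899 and 879 on mesenchyme 2, against 151 and 179 at P0. The membrane proteins Lamp1 and Lamp2 measured 2794 and 2563 on mesenchyme 2, against 874 and 853 at P0 for Lamp1, and 2326 and 1868 on mesenchyme 2, against 769 and 678 at P0 for Lamp2. Cd63, a tetraspanin of late endosomes, measured 4542 and 4184 on mesenchyme 2, against 1127 and 1139 at P0. Psap, the precursor of the saposins that help degrade lipids, measured 3862 and 3258 on mesenchyme 2, against 1030 and 1103 at P0. Dram1, a lysosomal membrane protein known as a p53 target and regulator of autophagy, measured 379 and 366 on mesenchyme 2, against 13.8 and 13.7 at P0, a 27.1-fold difference from very low P0 values. Pump subunits moved least: Atp6v1b2 and Atp6v1c1 were not called, at 0.37 and 0.31, while the accessory subunit Atp6ap1 rose by 1.26 ± 0.139. Manba and Gm2a, a mannosidase and a ganglioside cofactor, were the 2 members below 0, at -0.73 and -0.88.

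**Figure D3:**
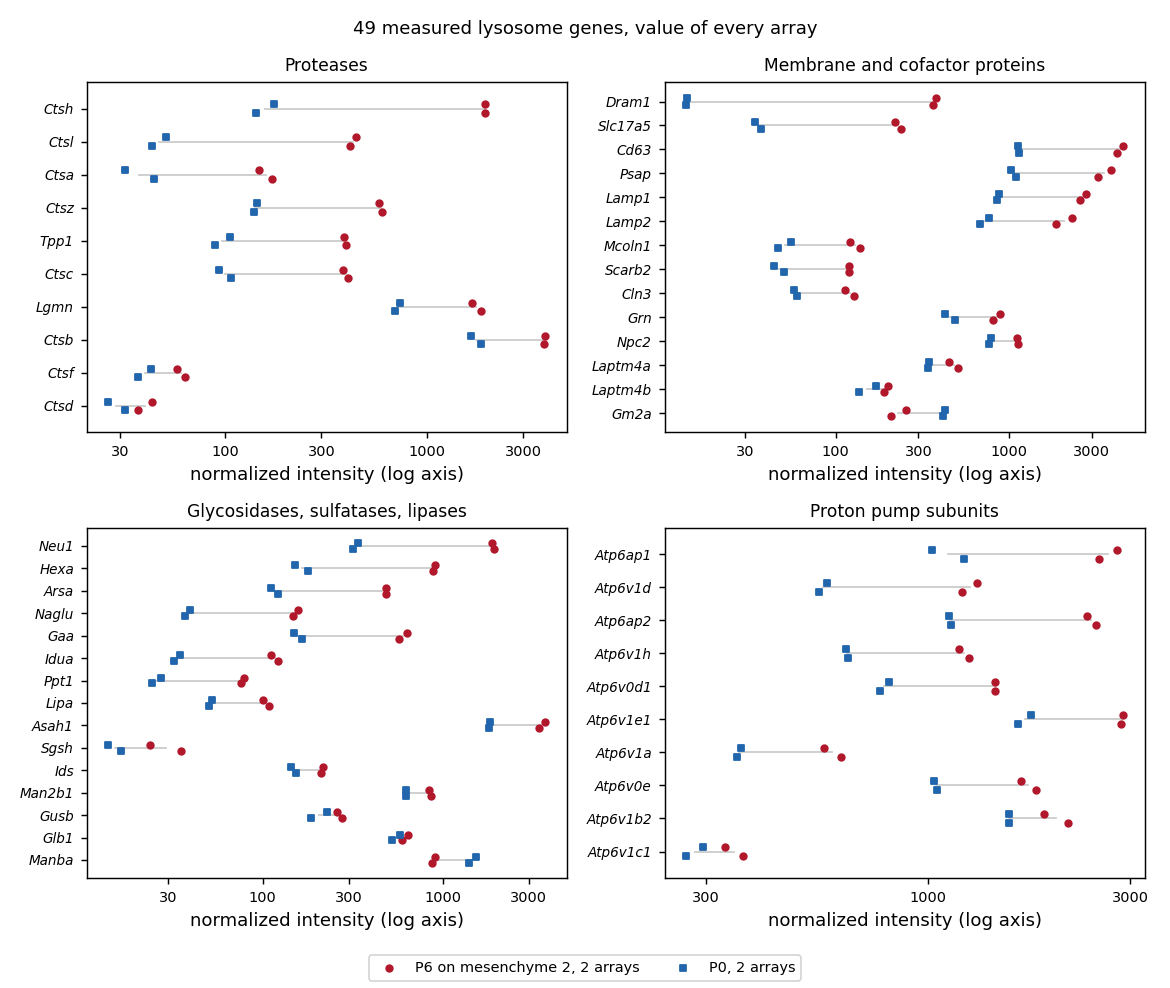
Normalized intensity (x axis, log scale) of every array for the 49 measured lysosome genes, in panels of proteases, of glycosidases, sulfatases and lipases, of membrane and cofactor proteins and of proton pump subunits; red circles are P6 on mesenchyme 2, blue squares P0. The gaps are wide for Ctsh, Dram1 and Neu1 and narrow for most pump subunits, and only Manba and Gm2a lie lower on mesenchyme 2.

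Many lysosome promoters carry a CLEAR element, the site of TFEB and its relatives, whose core TCACGTG was searched on both strands; other E-box factors read the same letters. The core occurred in 12 of the 42 measured lysosome genes with a window (28.6%) and in 8 of the 26 that rose and have one (30.8%), beside 6.0% of all measured genes, 8.1% of genes called higher and 2.8% of genes called lower. The carriers that rose were Ctsa, Arsa, Naglu, Gaa, Lamp1, Mcoln1, Lgmn and Cln3, and those not called were Sgsh, Atp6v1a, Ctsd and Glb1, so the letters were found on both sides of the call. Lamp1, which holds 4 matches, is at chr8:13158911-13159160 (plus strand), and Naglu, a glucosaminidase at 157 and 148 on mesenchyme 2, against 39.6 and 37.0 at P0, is at chr11:101069844-101070093 (plus strand); both windows are the 250 bases before the RefSeq start in GRCm38.p6, with the core in capitals.
Lamp1: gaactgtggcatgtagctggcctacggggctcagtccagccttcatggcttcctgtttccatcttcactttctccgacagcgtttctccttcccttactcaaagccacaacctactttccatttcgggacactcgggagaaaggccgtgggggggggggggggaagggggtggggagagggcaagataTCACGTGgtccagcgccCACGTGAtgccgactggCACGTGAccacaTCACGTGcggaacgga
Naglu: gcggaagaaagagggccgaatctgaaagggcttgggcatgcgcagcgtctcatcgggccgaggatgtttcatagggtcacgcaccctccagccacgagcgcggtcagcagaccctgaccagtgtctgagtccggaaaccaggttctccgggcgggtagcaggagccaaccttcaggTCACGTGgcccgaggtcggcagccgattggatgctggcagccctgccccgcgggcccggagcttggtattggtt

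Genes of the amino acid and integrated stress response, the programme in which phosphorylated eIF2 favours translation of ATF4, rose in 14 of 43 measured cases and fell in 2 (median 0.38). With 50 added 11 rose, and in the test against the 2-fold change 8. Ddit3, the stress factor CHOP, measured 924 and 1049 on mesenchyme 2, against 56.2 and 66.9 at P0 (4.01 ± 0.119, 16.1-fold, adjusted p = 2.20e-06). Nupr1, a small stress-induced chromatin protein, measured 3081 and 2909 on mesenchyme 2, against 494 and 505 at P0. Atf3, a stress-induced leucine zipper factor, averaged 202 on mesenchyme 2 and 38.9 at P0 (2.38 ± 0.1000). Ppp1r15a, the phosphatase subunit that reverses eIF2 phosphorylation, measured 549.8 and 539.9 on mesenchyme 2, against 148 and 149.8 at P0. Atf5, another leucine zipper factor, measured 1328 and 1524 on mesenchyme 2, against 425 and 446 at P0. Cebpb, a C/EBP factor, measured 828 and 926 on mesenchyme 2, against 317 and 309.8 at P0, and Trib3, a pseudokinase that inhibits ATF4, rose by 1.47 ± 0.141. Of 12 measured tRNA synthetases only Wars rose (1.34 ± 0.111), with a median of 0.30, and Mthfd2, a folate enzyme of mitochondria, was not called (0.54). Slc7a3, a carrier of cationic amino acids, fell, at 820.1 and 806 on mesenchyme 2, against 2671 and 2562 at P0.

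Of the 12 rising members with a window, 4 (Nupr1, Atf3, Vldlr and Herpud1) hold TGATGCAA, a composite C/EBP-ATF site, on either strand, beside 7 of 34 measured members of the list and 0.7% of all measured genes. Atf3 is at chr1:191183334-191183583 (minus strand) and Nupr1 at chr7:126625471-126625720 (minus strand); each 250-base window before the RefSeq start (GRCm38.p6) holds 1 match, in capitals, read on the opposite strand.
Atf3: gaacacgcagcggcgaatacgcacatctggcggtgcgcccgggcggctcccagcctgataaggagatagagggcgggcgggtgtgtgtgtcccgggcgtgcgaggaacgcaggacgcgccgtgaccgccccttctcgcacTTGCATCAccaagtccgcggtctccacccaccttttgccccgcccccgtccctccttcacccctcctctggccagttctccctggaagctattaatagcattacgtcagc
Nupr1: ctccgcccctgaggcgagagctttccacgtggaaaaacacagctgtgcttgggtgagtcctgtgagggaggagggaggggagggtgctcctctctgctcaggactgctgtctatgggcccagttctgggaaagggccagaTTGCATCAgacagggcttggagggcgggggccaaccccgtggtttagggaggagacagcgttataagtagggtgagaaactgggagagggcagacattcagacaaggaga

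Folding genes of the endoplasmic reticulum did not follow: 4 of 33 rose and 2 fell, near the share of all features. The chaperone Hspa5 was not called at 270.0 on mesenchyme 2 and 203 at P0, nor was the factor Xbp1 at 2349 on mesenchyme 2 and 1433 at P0. Pdia5, a disulfide isomerase, rose, at 694 and 720.1 on mesenchyme 2, against 178 and 183 at P0, as did Sel1l, the adaptor of misfolded protein disposal, by 1.27 ± 0.0879, and Calr, the chaperone calreticulin, fell, at 108 and 128 on mesenchyme 2, against 334 and 373 at P0. Of 37 vesicle transport genes 5 rose and 0 fell, 13.5% called beside 18.7% of all features. Of the 37, 31 lay above 0 (median 0.52), beside 51.3% of all features. With 50 added, Kdelr3, a receptor that returns proteins to the endoplasmic reticulum, was the 1 still called. It measured 1092 and 1053 on mesenchyme 2, against 213 and 203 at P0. Heat shock proteins and cytosolic chaperones numbered 2 rises and 2 falls of 30: Cryab, a small heat shock protein, measured 581 and 648 on mesenchyme 2, against 174 and 195 at P0, and Hspa8 stood level at 0.00.

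Immediate early genes, which respond within minutes to serum, stretch or handling, rose in 11 of 19 measured cases and fell in 2 (median 1.07), with 7 rises in the test against the 2-fold change. Ccn2, the matricellular protein CTGF and a known target of YAP, measured 8646 and 7767 on mesenchyme 2, against 1321 and 1313 at P0 (2.64 ± 0.0923, 6.22-fold), and Ccn1, its relative CYR61, measured 989 and 1149 on mesenchyme 2, against 181 and 204 at P0. Btg1, an antiproliferative regulator, measured 4695 and 4850 on mesenchyme 2, against 1043 and 1058 at P0. Klf6, a zinc finger factor, measured 438 and 476 on mesenchyme 2, against 134 and 114 at P0. Egr1 and Junb, classic members of the group, were not called at 0.33 and -0.27. Klf2, which is also a factor of naive stem cells, fell, at 320.4 and 305 on mesenchyme 2, against 1097 and 1327 at P0. Klf4, a related factor, rose on its brightest probe, at 1295 and 1166 on mesenchyme 2, against 373 and 404 at P0, but a further probe changed by -0.20. All groups passed through cell sorting, and its part in these genes was not tested.

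Growth factors, their binding proteins and receptor kinases moved both ways, with 9 of 30 higher and 6 lower (7 and 3 with 50 added). Flt1, a VEGF receptor, measured 872 and 1024 on mesenchyme 2, against 174 and 162 at P0. Mertk, a receptor for cell debris, measured 108 and 110.1 on mesenchyme 2, against 21.2 and 20.9 at P0, and its ligand Gas6 rose by 1.24 ± 0.104. Epha1, an ephrin receptor, and Efna1, an ephrin ligand, rose by 2.05 ± 0.120 and 2.39 ± 0.260. Igfbp2 and Igfbp5, which bind insulin-like growth factors, fell, Igfbp2 at 195 and 209 on mesenchyme 2, against 1650 and 1608 at P0 and Igfbp5 at 234 and 231 on mesenchyme 2, against 1002 and 978 at P0; Igf2 itself was not called (-0.11). In the FGF pathway, Klb, the coreceptor of endocrine FGFs, measured 238 and 246 on mesenchyme 2, against 14.5 and 8.33 at P0. Fgf10, a mesenchymal FGF, measured 206 and 198 on mesenchyme 2, against 53.4 and 59.8 at P0. By contrast Fgf15, a ligand of Klb receptors in mouse, measured 8.75 and 14.3 on mesenchyme 2, against 124 and 103 at P0. Dusp4, a phosphatase that ends ERK signalling, rose by 2.20 ± 0.105, and Etv5, an ERK-responsive factor, fell by 1.71 on the log2 scale, so targets of the pathway did not move one way.

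Glycosyltransferases, integrins with proteoglycans, and solute carriers were called at shares near that of all features (18.7%). Water and ion channels were called more often (38.1%). Of 29 glycosyltransferases 6 rose and 1 fell (24.1% called). B4galnt2, which makes the Sda blood group antigen of the gut, measured 705 and 737 on mesenchyme 2, against 32.5 and 35.5 at P0. Fut8, the core fucosyltransferase, measured 408 and 373 on mesenchyme 2, against 97.7 and 117 at P0; and Gcnt1, which starts branched O-glycans, 455 and 439 on mesenchyme 2, against 137 and 139 at P0. Of 37 integrin and proteoglycan genes 6 rose and 2 fell (21.6% called). The metalloproteinase inhibitors Timp2 and Timp3 measured 798 and 820.2 on mesenchyme 2, against 208 and 220.0 at P0 for Timp2, and 598 and 621 on mesenchyme 2, against 166 and 166 at P0 for Timp3, and Sulf1, which edits heparan sulfate, fell, at 104 and 94.2 on mesenchyme 2, against 313 and 308 at P0. Of 142 solute carriers 19 rose and 6 fell (17.6% called), and 9 rose and 3 fell with 50 added. Among 21 water and ion channels 7 rose and 1 fell; after Aqp8 these included Aqp3, a second water channel, at 248 and 299 on mesenchyme 2, against 55.8 and 70.2 at P0, Clic6, a chloride channel protein, at 1646 and 1682 on mesenchyme 2, against 364 and 387 at P0, and Fxyd3, a modulator of the sodium pump, at 504 and 453 on mesenchyme 2, against 64.6 and 73.3 at P0.

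The falls were led by Trh and Upp1, and genes of the early embryo were among those next in rank. Trh, thyrotropin-releasing hormone, measured 65.6 and 66.4 on mesenchyme 2, against 1696 and 1613 at P0 (-4.65 ± 0.0993, 25.1-fold), and Upp1, a uridine phosphorylase, 279 and 330.4 on mesenchyme 2, against 4242 and 4476 at P0 (14.4-fold). Lefty1, the Nodal antagonist that Nodal itself induces, measured 22.4 and 24.3 on mesenchyme 2, against 871 and 778 at P0. Lefty2, its paralogue, measured 107 and 96.3 on mesenchyme 2, against 1120 and 1208 at P0. Nodal fell too, at 75.3 and 75.2 on mesenchyme 2, against 216 and 229 at P0, as did its coreceptor Tdgf1, at 141 and 133 on mesenchyme 2, against 777 and 799.6 at P0, while the signal transducers Smad2, Smad3 and Smad4 were not called (0.78, -0.31 and 0.66). Of 9 measured epiblast and streak genes 8 fell; Otx2, a homeobox factor of the epiblast and anterior endoderm, measured 76.0 and 63.1 on mesenchyme 2, against 878 and 849 at P0. Gbx2, a homeobox factor of naive and caudal cells that was ranked among the 30 largest falls, measured 61.7 and 62.5 on mesenchyme 2, against 499.8 and 458 at P0.

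Wnt and Notch genes fell mostly at low intensity. Of 21 Wnt pathway genes 8 fell and 1 rose, against 3 falls with 50 added; the firm ones were Ccnd1, cyclin D1, at 119 and 91.2 on mesenchyme 2, against 921 and 996 at P0, Notum, a secreted Wnt inhibitor that Wnt induces, at 16.6 and 17.8 on mesenchyme 2, against 225 and 226 at P0, and Sfrp1, a Wnt-binding protein, at 67.5 and 76.7 on mesenchyme 2, against 286 and 305 at P0. Tcf7l2, a nuclear effector of Wnt, rose, at 435 and 491 on mesenchyme 2, against 102 and 129 at P0, and Ctnnb1, beta-catenin, was not called (0.09). Of 17 Notch genes 7 fell and 0 rose, but with 50 added only Notch4, a receptor, did, at 42.1 and 36.9 on mesenchyme 2, against 492 and 436 at P0; the target Hes1 was not called (0.93).

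Of 29 pluripotency genes 13 fell and 1 rose (median -0.68), and 8 fell in the test against the 2-fold change. Pou5f1, the core factor Oct4, measured 1022 and 1014 on mesenchyme 2, against 2947 and 2723 at P0. Utf1, a chromatin factor of stem cells, measured 127 and 118 on mesenchyme 2, against 773 and 743 at P0. Gdf3, a Nodal-like ligand of stem cells, measured 134 and 135 on mesenchyme 2, against 619.5 and 583 at P0. Of 18 germline-linked genes 9 fell and 2 rose. Aire, the thymic activator that stem cells also express, measured 16.7 and 12.9 on mesenchyme 2, against 559 and 561 at P0. Ooep, an oocyte protein, measured 799 and 749 on mesenchyme 2, against 2633 and 2561 at P0. Dnd1, which protects germ cell transcripts, measured 36.7 and 31.5 on mesenchyme 2, against 165 and 184 at P0. The 2 that rose were Taf7l, a testis-type subunit of TFIID, at 338 and 336 on mesenchyme 2, against 30.5 and 25.7 at P0, and Rhox5, a homeobox factor also used in extraembryonic tissue, at 2781 and 2599 on mesenchyme 2, against 964 and 962 at P0. Of 22 DNA methylation and Polycomb genes 6 fell, 0 rose and 16 were not called, 27.3% called beside 18.7% of all features. With 50 added, or in the test against the 2-fold change, 3 fell. Dnmt3b, a de novo methyltransferase, measured 722 and 705 on mesenchyme 2, against 1918 and 1823 at P0. Uhrf1, which recruits the maintenance enzyme, measured 1211 and 1251 on mesenchyme 2, against 3741 and 3664 at P0.

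Glycolysis enzymes were lower along most of the chain, with 12 of 18 measured isozymes called lower and 2 higher (median -1.25). Pkm, pyruvate kinase, measured 766 and 751 on mesenchyme 2, against 3959 and 4079 at P0 (-2.41 ± 0.0868, 5.30-fold). Ldha, lactate dehydrogenase, measured 1783 and 1609 on mesenchyme 2, against 6273 and 5356 at P0. Pfkp, a phosphofructokinase, measured 264 and 299 on mesenchyme 2, against 1421 and 1366 at P0. Pgam1, a mutase, measured 245 and 234 on mesenchyme 2, against 891 and 829.8 at P0. Tpi1, triosephosphate isomerase, measured 2503 and 2451 on mesenchyme 2, against 5409 and 6258 at P0. Aldoc, an aldolase, measured 26.5 and 34.1 on mesenchyme 2, against 370.3 and 367 at P0. Hkdc1 rose as above, and Eno2, the neuronal enolase, measured 222 and 224 on mesenchyme 2, against 49.3 and 50.8 at P0. The 4 not called were Hk2, a hexokinase (-0.26), Pfkm, a phosphofructokinase (-0.73), Pgam2, a mutase at low intensity (-0.88), and Gapdh, often used as a reference gene, at 6129 and 6542 on mesenchyme 2, against 10280 and 10560 at P0. Pdk1, the kinase that keeps pyruvate out of mitochondria, fell, at 185 and 182 on mesenchyme 2, against 1029 and 1055 at P0. In the wider list of glycolysis and hypoxia genes 16 of 32 fell and 4 rose (10 and 4 with 50 added); the 4 hold Vegfa, an angiogenic factor whose brightest probe measured 1576 and 1738 on mesenchyme 2, against 556 and 499.5 at P0 and whose other probe was not called, and P4ha1. The glucose carriers Slc2a1 and Slc2a3 were not called, at -0.78 and 0.15.

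Histone genes that are expressed in S phase were noticed among the largest falls, and this group was chosen after their values were seen. Of 34 measured genes 27 fell and 1 rose (median -1.58). All 10 measured H2A genes fell, by 1.53 to 2.29 on the log2 scale, as did 7 of 8 H2B genes, 5 of 7 H3 genes and 5 of 8 H4 genes. H2ac15 measured 1039 and 1060 on mesenchyme 2, against 4699 and 4286 at P0, H2ac12 828 and 870.4 on mesenchyme 2, against 3267 and 3372 at P0, and H2bc7 143 and 174 on mesenchyme 2, against 511 and 505 at P0. The copies are nearly identical in sequence, so probes of 1 type may read several of them and do not count as separate genes. H3c13 and H3c14 were not called (0.00 and 0.05), and the linker histone H1f2 rose, at 318 and 337 on mesenchyme 2, against 151 and 170.2 at P0. S phase genes moved the same way, with 15 of 42 lower and 0 higher (median -0.77), though 9 were lower with 50 added and 6 in the test against the 2-fold change. Ccne1, cyclin E1, measured 80.03 and 74.3 on mesenchyme 2, against 303 and 279.9 at P0. Rrm2, a subunit of ribonucleotide reductase, measured 106 and 109.5 on mesenchyme 2, against 298 and 308 at P0. Mcm10, a replication initiation factor, measured 671 and 689.5 on mesenchyme 2, against 1551 and 1475 at P0. Mitotic genes fell in 10 of 31 cases, in 5 with 50 added and in 1 in the test against the 2-fold change. Most of these falls were thus small, but they were widespread. Of the 31 mitotic genes 1 lay above 0 (median -0.83), and of the 42 S phase genes 1, beside 51.3% of all features. Top2a, topoisomerase II, measured 794 and 849.9 on mesenchyme 2, against 2292 and 2065 at P0. Cdkn1a, the inhibitor p21, rose on its brightest probe, at 1307 and 1303 on mesenchyme 2, against 625 and 594 at P0, while another probe was not called.

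**Figure D4:**
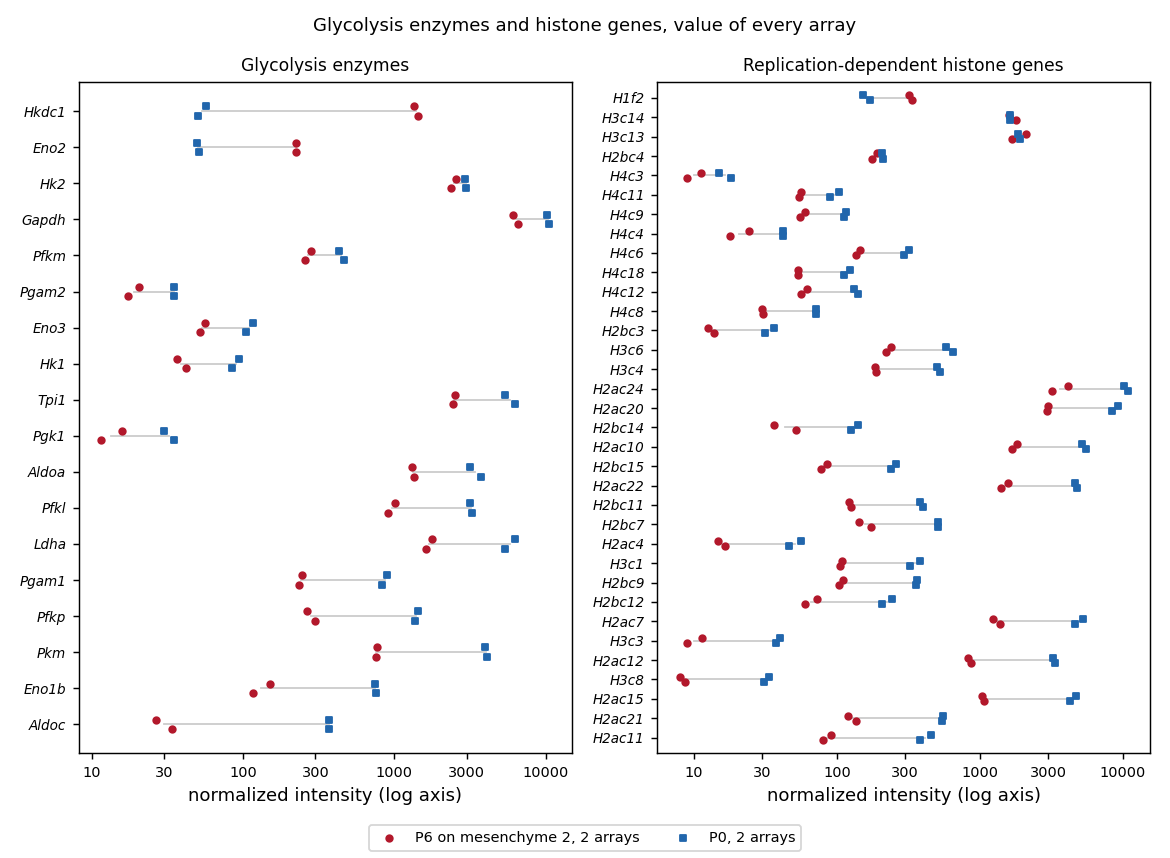
Normalized intensity (x axis, log scale) of every array for 18 glycolysis enzymes (left panel) and 34 replication-dependent histone genes (right panel), sorted by change; red circles are P6 on mesenchyme 2, blue squares P0. Hkdc1 and Eno2 lie higher on mesenchyme 2 and the other 16 enzymes lower, and of the histone genes H1f2 alone is called higher.

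Sterol synthesis fell in 11 of 18 measured cases and rose in 0 (median -1.27), and 7 fell with 50 added or in the test against the 2-fold change. Fdps, farnesyl diphosphate synthase, measured 469 and 501 on mesenchyme 2, against 1719 and 1775 at P0. Sqle, squalene epoxidase, measured 560.2 and 595 on mesenchyme 2, against 1659 and 1727 at P0. Hmgcs1, an early enzyme, measured 2295 and 1919 on mesenchyme 2, against 5352 and 4922 at P0. Srebf2, the regulator of these genes, was not called (-0.70), nor was Insig1, its inhibitor, at 0.41. Scd2, a fatty acid desaturase, fell, at 65.3 and 56.1 on mesenchyme 2, against 330.4 and 291 at P0, while Me1, malic enzyme, rose, at 1586 and 1587 on mesenchyme 2, against 374 and 365 at P0. Of 26 interferon-stimulated genes 13 fell and 1 rose: Ifitm2, an antiviral membrane protein, measured 1206 and 1275 on mesenchyme 2, against 4962 and 4366 at P0. Irf1, an interferon regulatory factor, measured 209 and 192 on mesenchyme 2, against 939 and 1042 at P0, and the rise was that of B2m, the light chain of class I molecules, at 3377 and 3312 on mesenchyme 2, against 667 and 704 at P0. Gsto1, a glutathione transferase, measured 1689 and 1785 on mesenchyme 2, against 560.2 and 533 at P0. Hmox1, heme oxygenase, measured 241 and 251 on mesenchyme 2, against 64.4 and 78.7 at P0, among 8 rises and 2 falls of 48 antioxidant genes, near the share of all features.

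Some housekeeping groups had few calls. Of 44 oxidative phosphorylation genes 0 rose and 1 fell (Cox7a2), with a median of -0.28. Of the 44, 5 lay above 0, beside 51.3% of all features, so small decreases were common. Of 24 mitochondrial carriers and TCA cycle genes none was called and 8 lay above 0, with changes between -0.86 and 0.64. Of 63 ribosomal protein genes 2 fell, both paralogues of restricted expression: Rpl39l, at 20.1 on mesenchyme 2 and 71.4 at P0, and Rpl3l, at 26.3 on mesenchyme 2 and 66.4 at P0. Of the 63 ribosomal protein genes 18 lay above 0 (median -0.18). Fatty acid oxidation had 2 rises of 18. The 159 zinc finger genes named Zfp were not such a group: 13 rose and 13 fell, 16.4% called beside 18.7% of all features, with changes between -2.85 and 2.01.

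**Figure D5:**
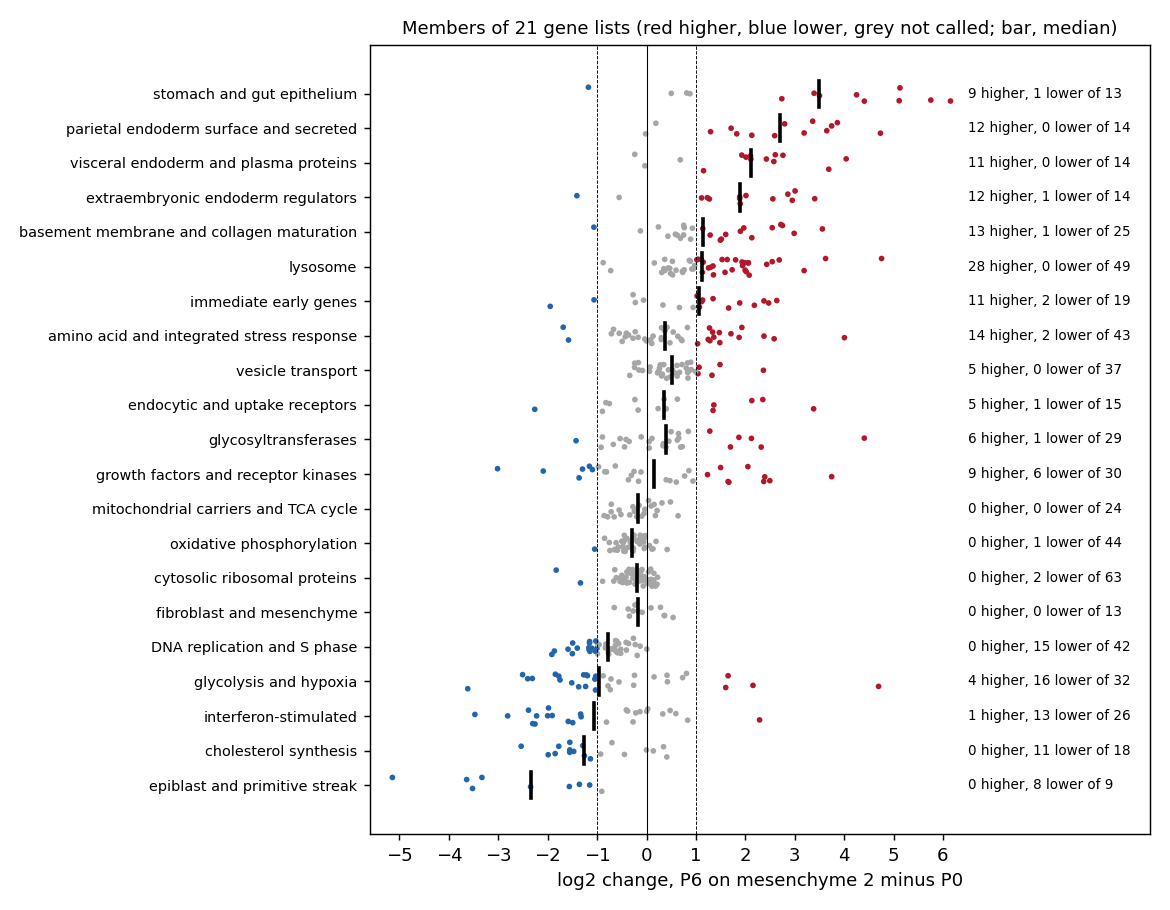
Log2 change, P6 on mesenchyme 2 minus P0 (x axis), of every measured member of 21 gene lists (rows); red points were called higher, blue points lower, grey points not called, black bars are medians and dashed lines mark 2-fold. Medians run from 3.50 for stomach and gut genes to -2.35 for epiblast and streak genes, with ribosomal, TCA cycle and fibroblast genes near 0.

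The cells passaged on mesenchyme 1 show how the same genes stood after as many passages on another mesenchyme. P6 on mesenchyme 2 differed from P6 on mesenchyme 1 in 2132 features, 25.4% of those tested. That comparison uses the same mesenchyme 2 arrays as the comparison with P0, so the values of the members are set beside each other and no overlap is counted. Gkn2 had 109 and 95.8 on the mesenchyme 1 arrays, which puts mesenchyme 2 above it by 4.52 ± 0.0974. Ddit3 had 44.2 and 46.0 on mesenchyme 1, a difference of 4.45 ± 0.119, and Ctsh had 161 and 163, a difference of 3.59 ± 0.113. Lama1 stood between the groups on mesenchyme 1, at 1115 and 925, with mesenchyme 2 higher by 2.33 ± 0.131. Trh had 1260 and 1101 on mesenchyme 1, and mesenchyme 2 was lower by 4.16; Pkm had 4023 and 4300, and mesenchyme 2 was lower by 2.46. Relative to the same P0 arrays that chose these genes, the median of mesenchyme 1 was 0.22 over the 30 rises and -0.02 over the 30 falls. Single genes departed from these medians in both directions. On mesenchyme 1 the change against P0 was 1.435 for Aqp8 and 1.127 for Gata6, but -1.029 for Fabp3 and -1.939 for Khdc3.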

How the data were processed

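Total RNA of 6 samples was amplified, biotin-labelled with Illumina's TotalPrep kit per the labels' protocols, and hybridised to 1-colour bead arrays, with 2 technical duplicates for each of 3 groups. The values are the intensity values of the authors' deposited table, linear and already normalized (BeadStudio, per the submitters' processing notes). The background correction, the normalization and the rule that kept 11097 of 25697 probes are not given in sources used here. A deposited scanner table pairs a signal with a p-value of detection, in 6 pairs of columns whose names match no sample label; it was not used. Array medians were 134.9 and 135.5 for P6 on mesenchyme 2 and 128.3 and 129.8 for P0, and no further normalization was applied.

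Probes were named from the platform annotation (10475 with 1 symbol, 0 with several, 622 with none), and 10471 were matched to RefSeq by Entrez identifier. For 2007 genes with several probes the brightest over all arrays was used. Log2 intensities of 8396 features were fitted with limma 3.58.1 in R 4.3.3 on all 6 arrays with 1 mean per group and 3 residual degrees of freedom, and p-values were adjusted by Benjamini-Hochberg over all features. The number of arrays limits the precision: the median SD between duplicates was 0.182 (log2) in the dimmest quartile of features and 0.0717 in the brightest one. The scripts were tested on simulated data.

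The gene lists and the genes described were chosen with earlier results of these data known. Genes named are the 30 largest rises and 30 largest falls among called genes, ranked with 50 added to every intensity, up to 8 rises, 8 falls and 4 bright uncalled members of each list, and the cell type markers; others named are further members of the lists. Promoters are RefSeq windows of 250 bases before the start, found for 6378 of 7774 named genes. Besides the letters described, ATGCAAAT, one form of the OCT4 site, was searched. It occurred in 1.6% of measured genes, 1.4% of genes called higher and 4.3% of genes called lower. Of the 26 falling S phase histone genes with a window 6 held it (23.1%). Of the 11 falling pluripotency genes with a window 1 did. The higher share among falls is thus not particular to stem cell genes, and no binding was tested. Alternatives added 16 or 50 to intensities, centred or quantile-normalized the arrays, filtered on a mean of 50, tested against the 2-fold change, averaged probes or left out an array.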

Additional observations from a re-analysis of the deposited data

Results flagged for a closer look

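The change against P0 differed between the 2 passaged cultures in 2132 of 8396 features, tested as the difference between P6 on mesenchyme 2 and P6 on mesenchyme 1 in the same limma fit (adjusted p under 0.05 and at least 2-fold). Each of these cultures is 1 culture with technical duplicates, so mesenchyme and culture cannot be told apart.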

How the results depend on the processing

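The number of calls depended on the fold limit and on a constant added to the intensities. With 50 added to every intensity, 441 features were called higher and 277 lower against P0, beside 863 and 710, and 1042 differed from mesenchyme 1, beside 2132; with 16 added, 451 were called lower. Tested against the 2-fold change itself, 395 were higher and 283 lower; without the fold limit, 2822 were higher and 2591 lower. Centring turned the balance, with 758 higher and 812 lower. Leaving out 1 array at a time gave 863 to 883 higher and 706 to 730 lower, and 324 to 332 of the 336 called genes fixed for naming were kept. Of these 336 genes, 281 were kept with 16 added, 227 with 50 added, 333 after centring, 328 after quantile normalization and 224 in the test against 2-fold, and 0 reversed in any alternative. Same-numbered arrays did not deviate together (correlations -0.0073, 0.0107 and -0.00307), so the numbers do not pair them; with the replicate block 863 features were higher and 709 lower, and 2131 differed from mesenchyme 1. Of 289 called genes with further probes, all probes of 214 were called in the same direction, and 0 had one called in the opposite direction. The cause of each shift was not tested.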

Other observations

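Trophoblast genes moved both ways, with 3 of 22 measured members higher and 7 lower on mesenchyme 2, but with 50 added to every intensity 1 was higher and 1 lower. Tfap2c, an AP-2 factor shared by trophoblast and germ cells, had a level of 446 on mesenchyme 2 and 1092 at P0. Of 7 measured genes of the retinoid pathway 1 rose and 2 fell. The rise was that of Rbp4, the retinol carrier described above, at a level of 1595 on mesenchyme 2 and 369 at P0. Rarg, a retinoic acid receptor, fell to 32.2 on mesenchyme 2, against 137 at P0, and Crabp1, a retinoic acid binding protein, fell to 27.2 on mesenchyme 2, against 67.1 at P0. Of 19 measured p53 targets 3 rose and 0 fell, 15.8% called beside 18.7% of all features. Of the 19, 17 lay above 0 (median 0.65), beside 51.3% of all features, so most rises were under 2-fold. Besides Dram1 and Cdkn1a the called gene was Polk, a translesion polymerase, at 548 on mesenchyme 2 and 145 at P0. Of 19 imprinted genes 2 rose and 2 fell, 21.1% called and so near the share of all features, among them Ddc, an aromatic amino acid decarboxylase, at 79.8 on mesenchyme 2 and 375 at P0. The genes nearest to the 2-fold limit were Ckb, a creatine kinase, just inside it at 1924 on mesenchyme 2 and 3850 at P0, and Fmc1 just outside it at 183.9 on mesenchyme 2 and 367.8 at P0.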
